A study of Homo sapiens with 6 samples.

Results

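Motile cilia genes are 40 genes that encode regulators and axoneme parts of the beating cilium, taken as a named set and followed through 6 libraries of astrocytes made from H1, an established human embryonic stem cell line. All 40 were found in the annotation by symbol, and 39 of them are among the 27455 genes with a read in any library. VM iAst, the astrocytes with ventral midbrain character, and Control iAst, those whose regional character is labelled forebrain, had 3 libraries each, numbered 2, 3 and 4. Both groups come from the same line, and no label gives a transgene, a differentiation schedule or an age in culture. The source field names astrocytes and the cell type field names the stem cell, so the label was checked against markers. The astrocyte marker GFAP had 320, 175 and 618 CPM in VM iAst and 267, 360 and 459 CPM in Control iAst. The stem cell factor POU5F1 had 0 reads in VM iAst and 5 in Control iAst. With it, 4 pluripotency markers summed to 3.25, 8.67 and 3.58 CPM in VM iAst and 5.93, 8.64 and 6.5 CPM in Control iAst. Neuron and mesenchymal markers were read as well, at sums given further below. CPM is counts per 1000000 reads of a library, with the library size scaled by TMM.

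A motile cilium is built on a ring of doublet microtubules around a central pair. Outer and inner dynein arms slide the doublets, radial spokes and the nexin link coordinate them, and proteins inside the doublet lumen stiffen them. In the brain, ependymal cells of the ventricle wall carry tufts of such cilia and move the cerebrospinal fluid. GMNC and MCIDAS start the multiciliated cell programme, and FOXJ1, a forkhead factor, turns on the axoneme genes together with RFX factors. FOXJ1 is also known from cells with a single motile cilium, such as those of the embryonic node in mouse.

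The table of RefSeq promoters (GRCh38.p14) held 33 of the 40 genes, and 250 bases before the start were searched on both strands for 2 motifs. The core of the RFX site, GTTGCC, stood in 17 of these 33 promoters (51.5%), against 10.2% of all 35116 promoters. The forkhead core, TGTTTAC, stood in 3 of them (9.09%), those of MYB, TEKT1 and CFAP43, against 2.98% of all promoters. The letters of the motifs cannot overlap each other. A match describes the letters and is not evidence of binding. The promoters of 4 genes follow, with motif letters in capitals on whichever strand they lie. DNAH9 and CFAP43 are structural genes with fold changes among the largest of the set, RSPH4A is a spoke gene with an RFX core, and MCIDAS is the regulator without a read.
DNAH9 (chr17:11598220-11598469, plus strand, neither motif): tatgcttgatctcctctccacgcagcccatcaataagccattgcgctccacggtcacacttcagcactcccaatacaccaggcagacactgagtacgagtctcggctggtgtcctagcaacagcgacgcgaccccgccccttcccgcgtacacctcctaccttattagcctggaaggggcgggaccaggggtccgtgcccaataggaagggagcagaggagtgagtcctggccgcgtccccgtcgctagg
CFAP43 (chr10:104232365-104232614, minus strand, forkhead core 159 bases before the start): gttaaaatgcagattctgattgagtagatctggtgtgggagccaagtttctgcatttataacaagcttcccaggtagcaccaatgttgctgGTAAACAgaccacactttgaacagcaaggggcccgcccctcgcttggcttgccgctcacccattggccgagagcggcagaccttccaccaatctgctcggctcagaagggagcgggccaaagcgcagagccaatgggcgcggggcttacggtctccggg
RSPH4A (chr6:116616229-116616478, plus strand, RFX core 50 bases before the start): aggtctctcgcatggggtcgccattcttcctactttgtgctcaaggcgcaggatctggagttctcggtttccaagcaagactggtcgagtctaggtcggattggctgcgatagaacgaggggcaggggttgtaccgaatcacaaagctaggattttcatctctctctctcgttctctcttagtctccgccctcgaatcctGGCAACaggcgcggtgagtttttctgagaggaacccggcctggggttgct
MCIDAS (chr5:55227316-55227565, minus strand, RFX core 114 bases before the start): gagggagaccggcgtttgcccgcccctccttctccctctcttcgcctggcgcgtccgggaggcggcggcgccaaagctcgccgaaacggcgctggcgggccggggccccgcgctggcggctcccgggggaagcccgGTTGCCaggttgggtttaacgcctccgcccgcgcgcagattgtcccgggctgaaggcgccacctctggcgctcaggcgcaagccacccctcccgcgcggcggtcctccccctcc

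Most of the 40 genes were detected in both groups, at low levels. Libraries held 12477947 to 15391082 reads in VM iAst and 11617935 to 14574520 in Control iAst. Between 28 and 29 members had 5 reads or more in a VM iAst library, against 21 to 26 in a Control iAst library. Of the 40, 25 reached 5 reads in every VM iAst library and 19 in every Control iAst library. The median of the members' mean level was 1.16 CPM in VM iAst and 0.58 CPM in Control iAst, while genes that could be tested had a median of 15 CPM over all libraries. All 40 members together took between 0.00957% and 0.0215% of a library's reads. A read from a transcript's 3' end counts that transcript once whatever its length, so CPM was not divided by length. In SPEF2 and DNAH9, many reads were assigned to transcripts that end far from the gene's 3' end, as given below. Levels of different genes are therefore compared only roughly. Over all libraries, 4 members averaged above 10 CPM: FOXJ1 at 36.3, SPEF2 at 32.7, CFAP44 at 20.5 and DNAH11 at 11.2. Another 21 averaged below 1 CPM.

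**Figure D1:**
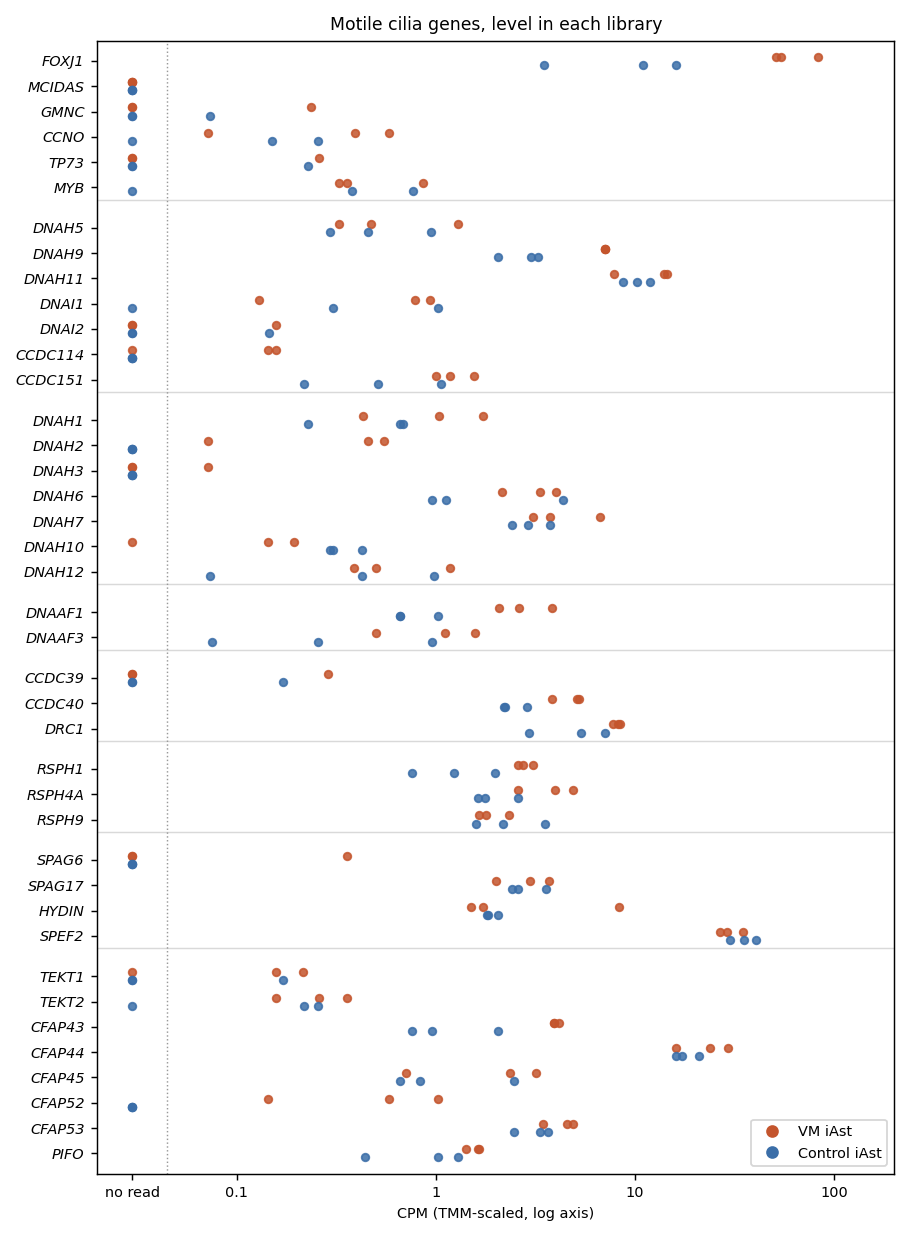
Level of each of the 40 genes in CPM on a log axis, grouped by role from regulators at the top to tektins and other axonemal proteins at the bottom. Each point is a library, VM iAst drawn above Control iAst, and libraries without a read stand at the left edge. FOXJ1 lies at 50.7 CPM or more in VM iAst and at 16.1 CPM or less in Control iAst, MCIDAS has no point above the left edge, and most genes lie below 10 CPM.

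The summed level of all 40 genes was 196, 208 and 176 CPM in VM iAst and 107, 126 and 102 CPM in Control iAst, so the groups did not overlap. Without FOXJ1 the sum was 114, 154 and 125 CPM in VM iAst and 90.4, 115 and 98.4 CPM in Control iAst, and the groups overlapped. Mean CPM was higher in VM iAst for 36 of the 40, lower for DNAH10, RSPH9 and SPEF2, and MCIDAS had no read. Over all genes with reads, 52.4% had a higher mean in VM iAst. Several of the 36 rest on few reads, such as DNAI2 with 2 in each group and DNAH3 with 1 in all. The authors' deposited normalized values list 32 of the 40. There MYB, DNAH5, DNAH6, DNAH11, DNAI1 and CCDC39 also had the lower mean in VM iAst, while SPEF2 had the higher one. RNA came from whole cultures, and neither the labels nor the levels show whether any cell carried motile cilia. A difference in the number of cells that express these genes and one in RNA per cell cannot be told apart.

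None of the 40 genes passed the test across all genes (edgeR's quasi-likelihood test, Benjamini-Hochberg adjusted p under 0.05), which called 344 of 15984 genes, 2.15% of those tested, with 1.06% higher and 1.09% lower in VM iAst. Only 22 of the 40 had enough reads to be tested, 55.0%, against 67.9% of protein-coding genes. At an unadjusted p under 0.05, 5 of the 22 were higher in VM iAst and 0 lower, against 5.79% of all genes tested higher. With DESeq2, 2 passed as higher, FOXJ1 and DNAH9, where 2.21% of genes were called higher. The same 2 genes passed with the replicate number as a block, where 3.63% of genes were called higher. FOXJ1 alone passed without the low-count filter, where 1.68% of genes were called higher, and without Control iAst replicate 4, where 0.356% were. The fold change was positive for 20 of the 22 and negative for RSPH9 and SPEF2, with a median log2 fold change of 0.72. Over all genes tested 51.7% were positive and the median was 0.01. In 9 of the 22 all VM iAst libraries were above all Control iAst libraries, against 9.15% of all genes tested, and in none were all below, against 8.77%. Of these 9, CFAP43, CCDC40 and RSPH4A overlapped between the groups on the deposited normalized values. A gene nearly silent in Control iAst enters the test only through its VM iAst reads, so these counts do not stand for all 40.

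**Figure D2:**
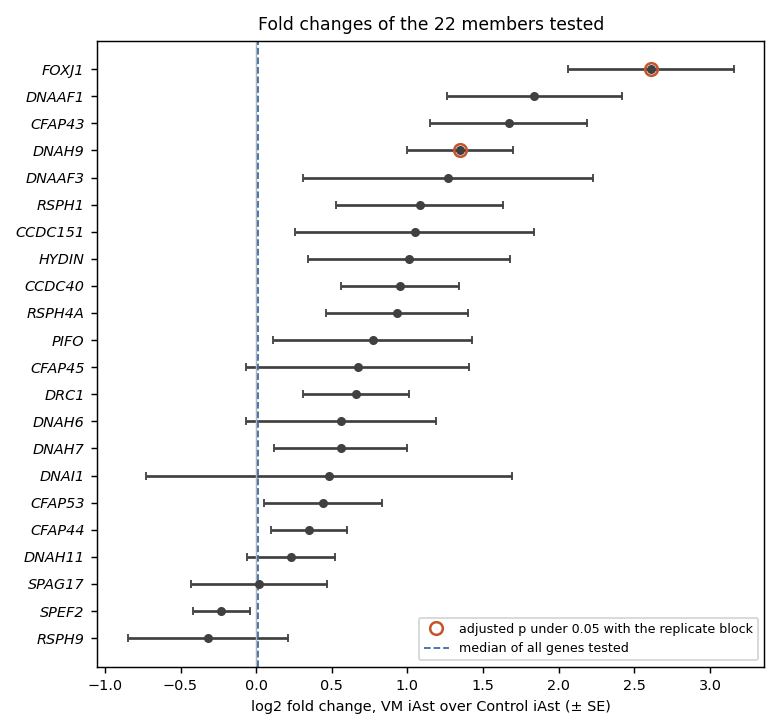
Log2 fold change of VM iAst over Control iAst for the 22 genes tested, with the standard error as a bar, sorted from highest to lowest. Circles mark FOXJ1 and DNAH9, which passed with the replicate block, and the dashed line is the median of all genes tested at 0.01. FOXJ1 is highest at 2.61, and SPEF2 and RSPH9 lie below 0, though each passes above it in an alternative.

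FOXJ1 was the only regulator with enough reads to test. The gene (chromosome 17, 76136333 to 76141299 on GRCh38) had 82.4, 54.0 and 50.7 CPM in VM iAst, against 16.1, 11 and 3.48 CPM in Control iAst. Every VM iAst library lay above every Control iAst library, and the lowest Control iAst library, replicate 4, was far below the other 2 of its group. The reads behind these levels were 1268, 689 and 708 in VM iAst and 220, 128 and 46 in Control iAst. All lie on its single annotated transcript, which ends at the gene's 3' end. The log2 fold change was 2.61 ± 0.55 (SE, n = 3 each), rank 44 among the genes tested, and the edgeR quasi-likelihood test gave an adjusted p of 0.087. Under the replicate block these values were 2.76 and 0.0013. DESeq2 gave an adjusted p of 4.4e-08, the lowest over 15 alternatives, of which the highest was 0.22. Without Control iAst replicate 4 the edgeR log2 fold change was 2.20 with an adjusted p of 0.017. By mean level FOXJ1 stood at percentile 82.6 of tested genes in VM iAst and at percentile 41.9 in Control iAst.

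The factors placed before FOXJ1 in multiciliated cells were at or near 0 in both groups. MCIDAS had no read in any library, which allows up to 0.195 to 0.235 CPM in a VM iAst library and 0.219 to 0.257 CPM in a Control iAst library, the level of 3 reads. GMNC had 0, 3 and 0 reads in VM iAst and 1, 0 and 0 in Control iAst. TP73, which acts with GMNC in mouse multiciliated cells, had 4, 0 and 0 reads in VM iAst and 0, 0 and 3 in Control iAst. Neither gene separated the groups. CCNO, a cyclin-like protein needed for centriole amplification, had 9, 5 and 1 reads in VM iAst and 0, 3 and 2 in Control iAst. MYB, which is also known from dividing cells, had 5, 11 and 5 reads in VM iAst and 0, 9 and 5 in Control iAst. Its highest library was replicate 3 in both groups. Replicate 3 was also highest in both groups for the summed level of 8 cycling cell markers, with 1010, 3480 and 926 CPM in VM iAst and 696, 2430 and 730 CPM in Control iAst. That sum was higher in VM iAst in each numbered pair, and all 8 fold changes were positive. None passed the edgeR test, while with the block 2 were called higher, TOP2A and PCNA. The part of cycling cells in the MYB reads was not tested.

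In the outer dynein arm, DNAH9, a heavy chain of its distal stretch, did not overlap between the groups. DNAH9 had 7.09, 7.06 and 7.02 CPM in VM iAst and 3.0, 3.25 and 2.04 CPM in Control iAst. The VM iAst libraries were nearly equal, and each was more than 2 times every Control iAst library. Its log2 fold change was 1.35 ± 0.35 with an edgeR adjusted p of 0.083, and under the replicate block it was 1.37 with an adjusted p of 0.028. DNAH11, the proximal heavy chain and the highest dynein of the set, had 7.87, 14.5 and 14.0 CPM in VM iAst and 10.2, 8.73 and 11.9 CPM in Control iAst. These groups overlapped, with a log2 fold change of 0.23 ± 0.29 that became -0.65 with a gene-length offset. Such an offset, here and below, is an alternative that the main test left out, since 3' end reads do not scale with length. DNAH5, the heavy chain that pairs with either of them, had 0.325, 0.470 and 1.29 CPM in VM iAst and 0.293, 0.941 and 0.454 CPM in Control iAst. DNAH5 was thus the lowest of the 3 and overlapped between groups. The intermediate chain DNAI1 had 25 reads in VM iAst and 16 in Control iAst, and its partner DNAI2 had 2 and 2. Of the docking proteins, CCDC114 had 4 reads in VM iAst and 0 in Control iAst. CCDC151 had 53 reads in VM iAst and 23 in Control iAst, with a log2 fold change of 1.05 ± 0.79 that became 1.75 without Control iAst replicate 4 and 1.60 on the deposited values.

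Inner arm heavy chains were uneven, and none separated the groups at a testable level. DNAH7 was the highest, with 3.06, 6.66 and 3.72 CPM in VM iAst and 3.73, 2.91 and 2.42 CPM in Control iAst. DNAH6 had 3.32, 4.0 and 2.15 CPM in VM iAst and 0.951, 4.36 and 1.13 CPM in Control iAst. The groups overlapped for each gene, and each had a log2 fold change of 0.56, which for DNAH6 became -0.11 with a gene-length offset. It became 1.59 without Control iAst replicate 3, the highest DNAH6 library, and 1.34 on coding transcripts alone. DNAH7 became 0.17 without VM iAst replicate 3. DNAH1 had 44 reads in VM iAst and 20 in Control iAst, and DNAH12 had 28 and 19. DNAH2 had 7, 7 and 1 reads in VM iAst and none in Control iAst. DNAH10 went the other way, with 3, 0 and 2 reads in VM iAst and 4, 5 and 4 in Control iAst. DNAH3 had 1 read in all, in VM iAst. Of the 10 dynein heavy chains in the set, 4 could be tested.

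DNAAF1 and DNAAF3 encode factors that assemble dynein arms in the cytoplasm before their transport into the cilium. DNAAF1 had 3.84, 2.60 and 2.08 CPM in VM iAst and 0.658, 1.03 and 0.663 CPM in Control iAst, without overlap. Its log2 fold change was 1.84 ± 0.58 with an edgeR adjusted p of 0.17. However, 98.05% of its reads were assigned to DNAAF1-209, annotated as a transcript with a retained intron, and none to a coding transcript. TAF1C lies on the opposite strand there and had 1075 reads. DNAAF3 had 1.11, 1.57 and 0.501 CPM in VM iAst and 0.951, 0.257 and 0.0756 CPM in Control iAst, which overlapped.

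The ruler proteins CCDC39 and CCDC40 work as a pair that sets the repeat of arms and spokes along the doublet, yet their levels were far apart. CCDC40 had 3.84, 5.25 and 5.08 CPM in VM iAst and 2.19, 2.22 and 2.87 CPM in Control iAst, without overlap. Its log2 fold change was 0.95 ± 0.39 with an edgeR adjusted p of 0.35. CCDC39 had 4 reads in VM iAst and 2 in Control iAst. The deposited normalized values put CCDC39 at 13.1 times the level found here. They were 2.92, 5.73 and 25.2 in VM iAst and 15.1, 16.2 and 15.3 in Control iAst. Their mean was thus lower in VM iAst, opposite to the reads. The annotation holds 2 gene identifiers under this symbol, and whether the second bears on either level was not tested. DRC1, which anchors the nexin link, had 8.19, 8.39 and 7.73 CPM in VM iAst and 2.93, 7.10 and 5.37 CPM in Control iAst. The groups did not overlap, though Control iAst replicate 3 came close, and the log2 fold change of DRC1 was 0.66 ± 0.35, or 0.29 with a gene-length offset.

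The 3 spoke head proteins were all read in every library. RSPH4A, the highest, had 3.97, 4.86 and 2.58 CPM in VM iAst and 1.76, 1.63 and 2.57 CPM in Control iAst, with replicate 4 nearly equal in both groups. RSPH1 had 2.73, 2.59 and 3.08 CPM in VM iAst and 1.24, 1.97 and 0.756 CPM in Control iAst, without overlap. Their log2 fold changes were 0.93 ± 0.47 and 1.08 ± 0.55. RSPH9 overlapped and leaned the other way, with a log2 fold change of -0.32 ± 0.53 that became 0.05 without Control iAst replicate 2.

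Central pair genes did not separate the groups. SPEF2 had 26.8, 34.7 and 28.8 CPM in VM iAst and 30.0, 40.6 and 35.2 CPM in Control iAst. It was slightly lower in VM iAst in each numbered pair of libraries, with a log2 fold change of -0.23 ± 0.19 that became 0.02 with a gene-length offset. HYDIN had 1.72, 8.31 and 1.5 CPM in VM iAst and 2.05, 1.80 and 1.82 CPM in Control iAst. Only VM iAst replicate 3 was high, and without it the log2 fold change of 1.01 became -0.24. SPAG17 was level between the groups, at 2.90 ± 0.853 CPM in VM iAst and 2.85 ± 0.642 CPM in Control iAst (SD, n = 3 each), but its log2 fold change of 0.02 became 1.18 with a gene-length offset and 1.01 on the deposited values, neither past the threshold. SPAG6 had 5 reads, all in VM iAst replicate 4.

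Of the tektins and other axonemal proteins, CFAP43 had the largest fold change among those tested, though not under every alternative. CFAP43, which with CFAP44 tethers an inner arm to its doublet, had 3.90, 3.92 and 4.15 CPM in VM iAst and 0.951, 2.05 and 0.756 CPM in Control iAst. The groups did not overlap, the log2 fold change was 1.67 ± 0.52, and the edgeR adjusted p was 0.17, or 0.057 under the block. That fold change became 0.70 with a gene-length offset and 0.85 on the deposited values, below those of CFAP45 there, 0.90 and 1.02. CFAP44 had 16.0, 29.4 and 23.8 CPM in VM iAst and 16.0, 21 and 17.1 CPM in Control iAst, which overlapped. CFAP52, a protein of the doublet lumen, had 9, 13 and 2 reads in VM iAst and none in Control iAst. Of 2 other lumen proteins, CFAP53 had a log2 fold change of 0.44 ± 0.39 and CFAP45 of 0.67 ± 0.74. That of CFAP45 became 1.48 without Control iAst replicate 3 and 0.22 without VM iAst replicate 2. PIFO, known in mouse for a part in cilium disassembly, did not overlap between groups, with a log2 fold change of 0.77 ± 0.66. The tektins were barely read: TEKT1 had 5 reads in VM iAst and 2 in Control iAst, and TEKT2 had 11 and 6.

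**Figure D3:**
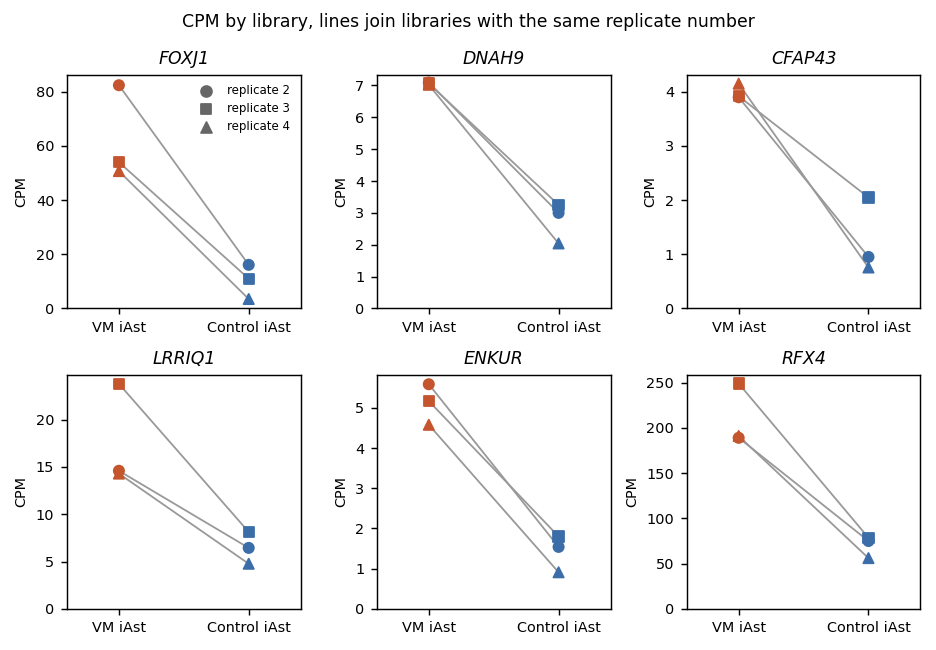
Level in CPM of 3 of the 40 genes (top row: FOXJ1, DNAH9, CFAP43) and of 3 related genes outside the set (bottom row: LRRIQ1, ENKUR, RFX4) in each library, VM iAst on the left and Control iAst on the right. Lines join libraries with the same replicate number, and every line falls toward Control iAst. The ratio of VM iAst to Control iAst for FOXJ1 was 5.12, 4.93 and 14.6 in replicates 2, 3 and 4.

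Which transcripts the reads were assigned to bears on what a level means, since these libraries read the 3' end. The shares rest on annotated transcript ends, and no read positions were used. Of the 28 members with 20 reads or more, 5 had under 50% of their reads on transcripts that end within 1000 bases of the gene's 3' end. Among tested members it was 4 of 22, against 17.2% of tested genes. The highest structural genes were among them. In SPEF2, 5.81% of reads lay on such transcripts, and 61.89% lay on SPEF2-211, which ends 103761 bases before the gene does. In CFAP44 it was 0.18%, with the leading transcript, the coding CFAP44-202 with 63.88% of reads, ending 3173 bases before the gene's end. That gene end is the end of CFAP44-211, which had 2.94 reads, in Control iAst replicate 2. The low share of CFAP44 thus reflects the furthest annotated end. In DNAH9 it was 49.13%, and another 40.50% lay on DNAH9-208, a short transcript that ends 356912 bases before the end. The antisense gene AC005410.2 overlaps DNAH9 and had 250 reads in VM iAst and 218 in Control iAst. With transcripts at the gene's 3' end alone, DNAH9 had a log2 fold change of 1.19 and an edgeR adjusted p of 0.47, on 142 reads in VM iAst and 56 in Control iAst. The 34 structural members summed to 113, 153 and 125 CPM in VM iAst and 90.4, 114 and 97.6 CPM in Control iAst, and the groups overlapped. The 5 members that had under 50% of their reads on transcripts ending near the gene's 3' end, CFAP44 among them, were then left out. The other 29 summed to 58.6, 75.0 and 59.6 CPM in VM iAst and 39.1, 46.6 and 39.4 CPM in Control iAst, without overlap.

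**Figure D4:**
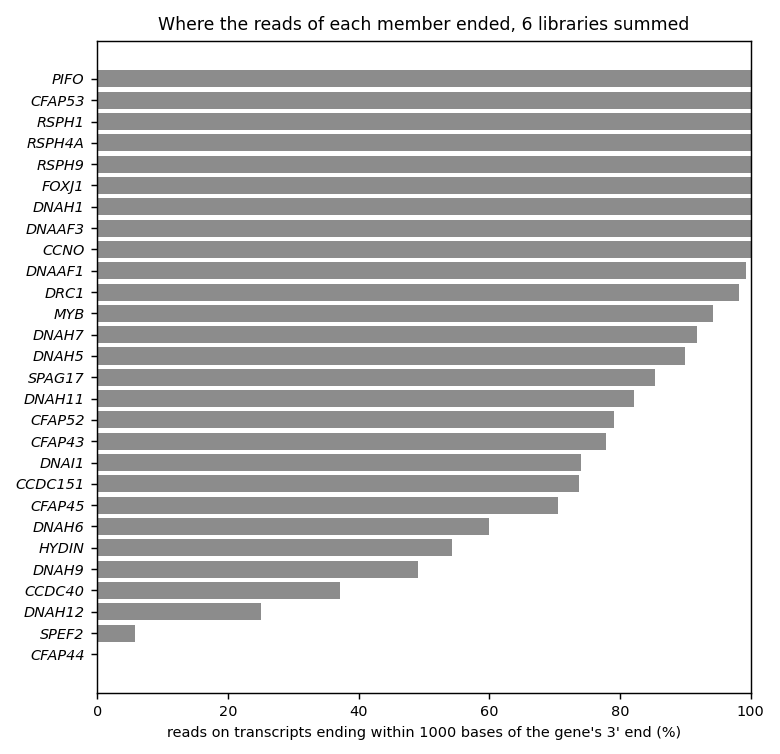
Share of the reads of each member, in percent and over all 6 libraries, that lay on transcripts ending within 1000 bases of the gene's 3' end, for the 28 members with 20 reads or more. FOXJ1 and the spoke genes are at 100%, DNAH9 is at 49.13%, and SPEF2 and CFAP44 are the lowest at 5.81% and 0.18%.

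Of 66 other motile cilia genes 47 were tested. Of these, 35 had a positive and 12 a negative fold change, where 51.7% of all genes tested were positive. The median log2 fold change was 0.24, against 0.01 over all genes. At an unadjusted p under 0.05 in the edgeR test, 8 were higher and 0 lower, against 5.79% of all genes tested higher. LRRIQ1, a leucine-rich repeat protein known from ciliated cells, rose and was the only gene of this list past the test. LRRIQ1 had 14.6, 23.8 and 14.3 CPM in VM iAst and 6.44, 8.13 and 4.76 CPM in Control iAst, without overlap. Its log2 fold change was 1.44 ± 0.30 with an edgeR adjusted p of 0.036. That call was lost when VM iAst replicate 2, 3 or 4 or Control iAst replicate 2 or 4 was left out, with adjusted p between 0.066 and 0.15. ENKUR, which encodes a lumen protein of the doublet, had 5.59, 5.17 and 4.58 CPM in VM iAst and 1.54, 1.80 and 0.908 CPM in Control iAst. Its log2 fold change was 1.85 ± 0.44 with an edgeR adjusted p of 0.063, or 0.016 under the block. The most abundant genes of the list were SPAG16 of the central pair, at 68.7 ± 10.1 CPM in VM iAst and 71.8 ± 2.86 CPM in Control iAst, and CFAP298, a dynein assembly factor, at 45.8 ± 11 and 31.7 ± 4.26 CPM (SD, n = 3 each). CFAP298 passed with the block alone, at an adjusted p of 0.045.

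RFX factors bind the promoters of cilia genes. All 4 ciliary RFX factors were tested, at mean levels of 14.3 to 140 CPM. RFX4, which in mouse is needed for cilia of the neural tube, had 189, 249 and 191 CPM in VM iAst and 74.9, 78.5 and 56.0 CPM in Control iAst. It rose by a log2 fold change of 1.59 ± 0.19, with an edgeR adjusted p of 0.0031. RFX3 had 53.2, 89.8 and 67.7 CPM in VM iAst and 39.9, 57.2 and 37.7 CPM in Control iAst, and passed with the block at an edgeR adjusted p of 0.0083 and without the low-count filter at one of 0.02. RFX1 and RFX2 had log2 fold changes of -0.11 ± 0.18 and 0.39 ± 0.25.

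Of 12 genes that amplify centrioles in multiciliated cells, 4 were near 0. DEUP1, which builds the deuterosome, had 30 reads in VM iAst and 11 in Control iAst. CDC20B had 0 reads in VM iAst and 6 in Control iAst, FOXN4 had 2 and 0, and CCDC78 had 2 and 2. The other 8, which dividing cells also use, were tested, and 7 of them averaged above 10 CPM. None passed the edgeR test, with 0 higher and 0 lower at an unadjusted p under 0.05, and none with DESeq2. CEP152, for example, had 16.9, 65.3 and 20.5 CPM in VM iAst and 11.3, 54.2 and 11.9 CPM in Control iAst, highest in replicate 3 of both groups as the cycling markers were.

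A list taken as genes that motile and primary cilia share, mostly for transport and the transition zone, lay at higher levels than the 40 members. All 53 genes of the list were tested, with a median level of 26.4 CPM. Their median log2 fold change was 0.11, beside 0.01 over all genes tested. None passed the edgeR test. At an unadjusted p under 0.05, 4 of the 53 were higher and 0 lower, against 5.79% of all genes tested higher. With the block 2 of the 53 were called higher, where 3.63% of all genes were. CEP290, a transition zone protein, had 68.0, 96.2 and 65.6 CPM in VM iAst and 56.7, 67.8 and 43.1 CPM in Control iAst, which overlapped, and was called with the block at an adjusted p of 0.041. Its log2 fold change of 0.46 ± 0.21 became -0.09 with a gene-length offset. The 2 most abundant were GPR161 and ARL3. GPR161 was counted in this list although it is a receptor of the primary cilium. Its level was 120 ± 19.0 CPM in VM iAst and 126 ± 15.9 CPM in Control iAst. ARL3 had 131 ± 22 and 106 ± 4.95 CPM (SD, n = 3 each).

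Ependymal markers outside the core axoneme list summed to overlapping levels in both groups. The summed level of 15 such markers was 60.5, 55.7 and 60.1 CPM in VM iAst and 56.3, 50.8 and 45.6 CPM in Control iAst, of which RARRES2 and CAPS made up most. Of the 8 tested, 4 had a positive and 4 a negative fold change, and none passed the edgeR test. CAPS, a calcium-binding protein abundant in ciliated cells, had 8.65, 8.15 and 10.2 CPM in VM iAst and 13.7, 16.8 and 16.7 CPM in Control iAst, lower in VM iAst with the block at an adjusted p of 0.037. CAPSL and CIMIP1 had no read, SNTN had 2 reads and TMEM212 had 7, all in VM iAst. CFAP144 had 46 reads in VM iAst and 1 in Control iAst. MLF1 had 6.78, 3.85 and 2.12 CPM in VM iAst and 0.983, 0.900 and 1.74 CPM in Control iAst, with an edgeR adjusted p of 0.17. CFAP276, CFAP90, DYDC2, FAM81B and RARRES2 had a higher mean CPM in VM iAst as well, CCDC153 and SPMIP6 had a lower one, and TPPP3 was level at 4.26 CPM in VM iAst and 4.34 CPM in Control iAst.

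Neuron and mesenchymal marker sums did not overlap between the groups, while those of choroid plexus, astrocyte and radial glia markers did. For the choroid plexus, whose cells also carry motile cilia, TTR had no read and 14 markers summed to 21, 17.2 and 24.7 CPM in VM iAst and 24.5, 36.3 and 41.0 CPM in Control iAst. Of the 5 tested, 3 had a positive and 2 a negative fold change, with a median log2 fold change of 0.52. At an unadjusted p under 0.05, 0 were higher and 2 lower. With the block 2 were called lower, SLC13A4 and OTX2, and with DESeq2 1. Of 9 sperm markers 6 had no read, and the sum was at most 0.549 CPM in any library. Astrocyte markers summed to 1180 to 1950 CPM in VM iAst and 1560 to 2070 CPM in Control iAst, with 4 of 12 called higher in VM iAst: AQP4, SLC1A3, NFIA and MLC1, at log2 fold changes of 0.83 to 2.98. The fold change was negative for 6 of the 12, with 2 lower at an unadjusted p under 0.05 and 3 called lower with the block, GJA1, SOX9 and CD44. Among 10 radial glia and progenitor markers, with sums of 1800 to 2090 CPM in VM iAst and 1700 to 1970 CPM in Control iAst, PROM1 rose with a log2 fold change of 1.89 and PAX6 fell with one of -2.16. Neuron markers summed to 858 to 1250 CPM in VM iAst and 1350 to 2100 CPM in Control iAst, with none of 12 past the edgeR test, 0 higher and 4 lower at an unadjusted p under 0.05. With the block 5 were called lower, and with DESeq2 4. Mesenchymal markers summed to 645 to 804 CPM in VM iAst and 1190 to 1850 CPM in Control iAst. COL1A1, COL3A1, PRRX1 and FOXC1 were called lower, at log2 fold changes of -2.76 to -1.72. The fold change was positive for 3 of the 10 mesenchymal markers and negative for 7. At an unadjusted p under 0.05, 2 were higher and 6 lower. The part of these differences in the levels of the cilia genes was not tested.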

How the data were processed

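RNA of 6 libraries was profiled with a 3' end kit, per the labels' protocols. Per the submitters' processing notes, Salmon, DESeq2 1.27.12 and GRCh38.p13 were used. The authors deposited estimated counts, TPM and effective lengths for 226608 transcripts in each library, and a table of normalized signal for 21509 genes. The deposited TPM entered no test. Per gene, the estimated counts were added up with GENCODE 29 (90.6% of transcripts matched, 0.992% to 1.115% of reads unmatched) and rounded. The strand setting of the counting is not given in the sources used, so antisense and overlapping genes cannot be told apart from members, and Salmon divides reads between transcripts that share sequence.

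Genes were filtered with filterByExpr, scaled by TMM and tested with edgeR 4.0.16 (quasi-likelihood, robust; R 4.3.3), VM iAst against Control iAst, with Benjamini-Hochberg adjustment over 15984 genes. The common biological coefficient of variation was 0.309. No label says that replicates are separate cultures, so p-values measure the spread between these libraries, which may be technical. Deviations from the group means correlated at 0.277, 0.409 and 0.25 between libraries of the same number and at most 0.034 otherwise, so the numbers were treated as pairs in a block fit, although no label says what they share. The common limit for a gene without reads is 3 reads, which covers counting error only. On simulated data the test recovered 40% of 2-fold and 81% of 4-fold changes, with 9 of 130 calls false. The changed genes were drawn from tested genes averaging at least 1 CPM, while 21 of the 40 members averaged below 1 CPM. Tested members stood at a median percentile of 20.6 by mean level among tested genes. These rates therefore do not stand for the members.

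Members, lists and motifs were chosen with earlier results of these data known. All 40 members are accounted for. Values per library are given for regulators, for members past the threshold with or without the block, and for the highest of each role. Of other lists, genes past the threshold and the 2 highest are named, and any further gene was chosen after its values were seen. Values of 1 gene of these lists are not reported here, while the counts include it. Alternatives were RLE scaling, 2 low-count filters, DESeq2 1.42.0, a gene-length offset, limma 3.58.1 on log2(deposited value + 1), the replicate block, coding transcripts alone and each library left out. Transcripts at the gene's 3' end alone were added after seeing the data. The main test used no length offset, since 3' end reads do not scale with transcript length.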

Additional observations from a re-analysis of the deposited data

How the results depend on the processing

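No member passed the edgeR test with RLE scaling, with at least 2 CPM in 3 libraries or with a gene-length offset. The same held on coding transcripts and on transcripts at the gene's 3' end, and with limma on the deposited values. With the replicate block and with DESeq2 2 members were called higher, FOXJ1 and DNAH9 in each, and with no low-count filter 1, FOXJ1, at an adjusted p of 0.043. Leaving out a library gave 0 to 1, the 1 being FOXJ1 without Control iAst replicate 4. Genes called higher and lower over all genes were 169 and 175, against 581 and 719 with the block, 461 and 551 with no low-count filter, 340 and 410 with DESeq2, and 83 and 91 with the length offset. Leaving out a library gave 59 to 120 higher and 72 to 138 lower.

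Of 316 fold changes of the 22 tested members over 15 alternatives, 14 changed sign, none of them past the threshold, and 15 members had none that did. DNAH11 went to -0.65 with the length offset and -0.54 on deposited values, DNAH6 to -0.11 and SPEF2 to 0.02 with the length offset. SPEF2 was 0.02 on 3' end transcripts and 0.08 on deposited values, and HYDIN -0.05 on deposited values and -0.24 without VM iAst replicate 3. SPAG17 was -0.11 on coding transcripts, -0.20 without VM iAst replicate 2, -0.09 without Control iAst replicate 3 and -0.05 without Control iAst replicate 4. Without Control iAst replicate 2, DNAI1 was -0.11 and RSPH9 0.05. SPAG17 was 1.18 with the length offset and 1.01 on deposited values. Over the libraries left out, DNAI1 ranged to 1.96, RSPH9 to -0.55, SPAG17 to 0.23 and HYDIN to 1.4. CEP290, outside the set, was -0.09 with the length offset. The cause was not tested. LRRIQ1 also lost its call with the length offset and on deposited values, at adjusted p of 0.13 and 0.088, and was not tested on 3' end transcripts. RFX4 kept its call in all 15 alternatives. The FOXJ1 fold change lay between 2.20 and 3.12.

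The members' levels limit the test: 21 of 40 averaged under 1 CPM and 18 were not tested.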
